A study of Mus musculus with 8 samples.

Results

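The Notch receptors, ligands and target genes of liver sinusoidal endothelial cells were followed after an iron load. The group was set by name as 10 genes, which are the receptors *Notch1* and *Notch4*, the ligands *Dll1*, *Dll4* and *Jag1*, the DNA-binding effector *Rbpj*, and the target genes *Hes1*, *Hey1*, *Hey2* and *Heyl*. Of these, 9 were matched to a target among the 23930 RefSeq targets counted, and 8 of the 14601 targets that passed the filter on low counts were members. No target was matched to *Rbpj*, which was not analysed here, and *Hey2* was counted but fell under the filter.

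The cells came from livers of young, female, wild type Balb/c mice, 1 mouse per library, and were sorted by flow cytometry for high STAB2, high CD146 and dim CD45. Mice in the citrate buffer group received 0.05 M citrate buffer into a vein, mice in the iron citrate group received 150 ug of iron citrate by the same route, and the labels give 5 hours for both. The design text speaks of 5 samples per group, and 4 libraries per group were used here. No genetic change is labelled in either group, and the age in weeks is not given in the sources used here.

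Notch signalling passes between cells in contact. A Delta-like or Jagged ligand on one cell pulls on a Notch receptor on its neighbour, proteases then cut the receptor, and the freed intracellular part enters the nucleus, where it joins RBPJ and Mastermind proteins at genes of the HES and HEY families. Without that part, RBPJ sits at the same genes with corepressors such as SPEN. In blood vessels the pathway is known for arterial fate and for restraining sprouting, and in the liver for the differentiation of sinusoidal endothelium.

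Promoters are shown for *Spen*, the pathway gene that was called, for *Numbl*, which was called in 5 of 17 alternative fits, for *Dll4*, the ligand with the most counts, and for *Hey2* and *Lfng*, a target gene and a receptor-modifying enzyme with a match to the RBPJ motif. Each line gives the 250 bases before the annotated start of transcription, 5′ to 3′ on the strand of the gene, from RefSeq with build GRCm38.p6. Capitals mark TGGGAA, the core that RBPJ binds, or its reverse complement TTCCCA.
Spen, chr4:141538598-141538847, minus strand: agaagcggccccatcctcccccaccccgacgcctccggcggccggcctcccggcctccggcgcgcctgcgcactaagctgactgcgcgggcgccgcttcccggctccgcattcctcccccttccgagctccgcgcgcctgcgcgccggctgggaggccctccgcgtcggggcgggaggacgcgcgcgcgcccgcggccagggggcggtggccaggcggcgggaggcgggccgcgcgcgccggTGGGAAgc
Numbl, chr7:27258511-27258760, plus strand: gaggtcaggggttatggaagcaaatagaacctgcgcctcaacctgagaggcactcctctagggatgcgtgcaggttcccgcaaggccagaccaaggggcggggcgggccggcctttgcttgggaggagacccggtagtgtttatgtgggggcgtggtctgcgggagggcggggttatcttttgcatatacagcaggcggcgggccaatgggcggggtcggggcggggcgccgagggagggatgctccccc
Dll4, chr2:119325534-119325783, plus strand: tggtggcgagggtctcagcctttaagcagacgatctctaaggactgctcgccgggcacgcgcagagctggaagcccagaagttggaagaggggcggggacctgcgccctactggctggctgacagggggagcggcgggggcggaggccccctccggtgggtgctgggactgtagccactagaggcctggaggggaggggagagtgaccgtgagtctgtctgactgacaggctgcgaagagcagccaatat
Hey2, chr10:30842784-30843033, minus strand: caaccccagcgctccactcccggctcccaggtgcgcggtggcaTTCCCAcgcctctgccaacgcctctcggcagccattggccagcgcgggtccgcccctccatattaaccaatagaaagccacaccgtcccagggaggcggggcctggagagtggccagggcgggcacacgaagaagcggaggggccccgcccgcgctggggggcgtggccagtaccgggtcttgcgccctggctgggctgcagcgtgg
Lfng, chr5:140607091-140607340, plus strand: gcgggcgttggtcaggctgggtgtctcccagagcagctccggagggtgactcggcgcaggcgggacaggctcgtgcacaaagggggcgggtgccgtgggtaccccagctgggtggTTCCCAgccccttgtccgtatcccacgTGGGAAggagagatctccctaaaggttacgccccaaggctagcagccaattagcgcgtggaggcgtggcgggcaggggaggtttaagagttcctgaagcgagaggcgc
The RBPJ core on either strand was present in 21.6% of the 32851 windows of 250 bases in that table. In *Spen* the match ended 2 bases before the start site, and in *Hey2* it ended 201 bases before it, on the opposite strand. *Lfng* held 2 matches on opposite strands, ending 129 and 102 bases before the start. Its second match shared its first bases with a CACGTG E-box, a motif that HES and HEY proteins can bind, which was present in 6.02% of all windows. Of the 10 members 7 had an entry, with 9 windows between them. The target genes *Hes1*, *Hey1* and *Heyl* had no entry and were not searched. The core was found in 3 of these 9 windows, both windows of *Rbpj*, which overlap each other, and the window of *Hey2*. A match describes these letters in this window and does not show a bound site.

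Libraries held between 7969520 and 11314659 counts on targets. Each gene is read through 1 short amplicon in this assay, so counts depend on how well that amplicon works, and levels were compared between libraries but not between genes. CPM give the count of a target relative to the total of its library, scaled with TMM factors. Citrate buffer replicate 1 stood apart from the rest, with a median correlation of 0.839 with its own group against 0.962 to 0.981 in the other 7 libraries. Chemosensory receptor and keratin-associated protein genes (1286 targets), which liver is not expected to express, drew 2.42% of its counts, 0.983% in citrate buffer replicate 2 and 0.295% to 0.611% in the other 6. The sort was checked on markers. Over 20 sinusoidal genes, led by *Clec4g* and *Ehd3*, the summed level was 27138 CPM in citrate buffer replicate 1 and reached 42424 to 53042 CPM elsewhere, and none of the 20 was called. Groups did not overlap in 1 of them with iron above and in *Mcam*, the gene of the sorted CD146, with iron below. *Mcam* was at 203 to 285 CPM after buffer and 165 to 193 CPM after iron (log2 fold change -0.50, SE 0.14, edgeR adjusted p = 0.239). For *Stab2* the groups overlapped (-0.15, SE 0.16). The sums were 406 to 956 CPM for hepatocyte and 717 to 1275 CPM for Kupffer cell markers, led by *Alb* and *Ahsg* and by *Lyz2* and *Vsig4*, with none called. The Kupffer sum hid opposite values in citrate buffer replicate 1. There *Lyz2* was at 950 CPM, against 451 to 669 CPM elsewhere, and *Vsig4* at 22.9 CPM, against 78.9 to 202 CPM elsewhere. Of 12 tested Kupffer markers, 10 log2 fold changes were above 0 and 2 below, with a list median of 0.55. Markers of other leukocytes summed to 1660 CPM in citrate buffer replicate 1, against 869 to 1225 CPM elsewhere. The markers of this list with the most counts were *Clec9a* and *Ptprc*. *Clec9a* was the only called gene of 14 tested, where 0.555% of all tested targets were called. It was higher after iron (log2 fold change 0.76, SE 0.12, edgeR adjusted p = 0.0221), while *Ptprc* was at -0.27 (SE 0.29). Of the 14, 4 values were above 0 and 10 below, with a list median of -0.089. The part of these library differences in the results below was not tested. Values without citrate buffer replicate 1, or without replicates 1 and 2, are given beside most tested members and some other genes. In sorted bulk samples, fewer cells of a type and less RNA per cell cannot be told apart.

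The comparison of iron citrate with citrate buffer addresses how sinusoidal endothelium responds to iron, and here what the Notch genes did in that response. None of the 8 tested members was called in edgeR's quasi-likelihood test at an adjusted p under 0.05, against 81 of the 14601 tested targets (0.555%), of which 0.527% were higher and 0.0274% lower after iron. At an unadjusted p under 0.05 there were 2 members, *Hes1* with higher and *Dll1* with lower values after iron, and 14.6% of all tested targets reached that level. DESeq2 and limma-voom also called 0 members, against 2.5% and 1.99% of all targets. Members called also numbered 0 in the fits quoted below, where 1.76%, 0.327%, 0.339% and 0.506% of targets were called without citrate buffer replicates 1, 2, 3 and 4 respectively, 0.312% without iron citrate replicate 2, 1.9% without citrate buffer replicates 1 and 2, 0.295% with the replicate number as a block and 2.24% with a covariate for the share of counts on genes not expected in liver. The members' median log2 fold change was 0.21, with 5 values above and 3 below 0, and the median over all tested targets was -0.0097. The sign of the members' median depended on the libraries and the model. It was 0.018 without citrate buffer replicate 1, -0.18 without citrate buffer replicates 1 and 2, -0.030 with limma-voom and -0.20 with the covariate. In each of the 8 members the groups overlapped, while 8.67% of all tested targets had groups that did not (6.38% with iron above and 2.29% with iron below).

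**Figure D1:**
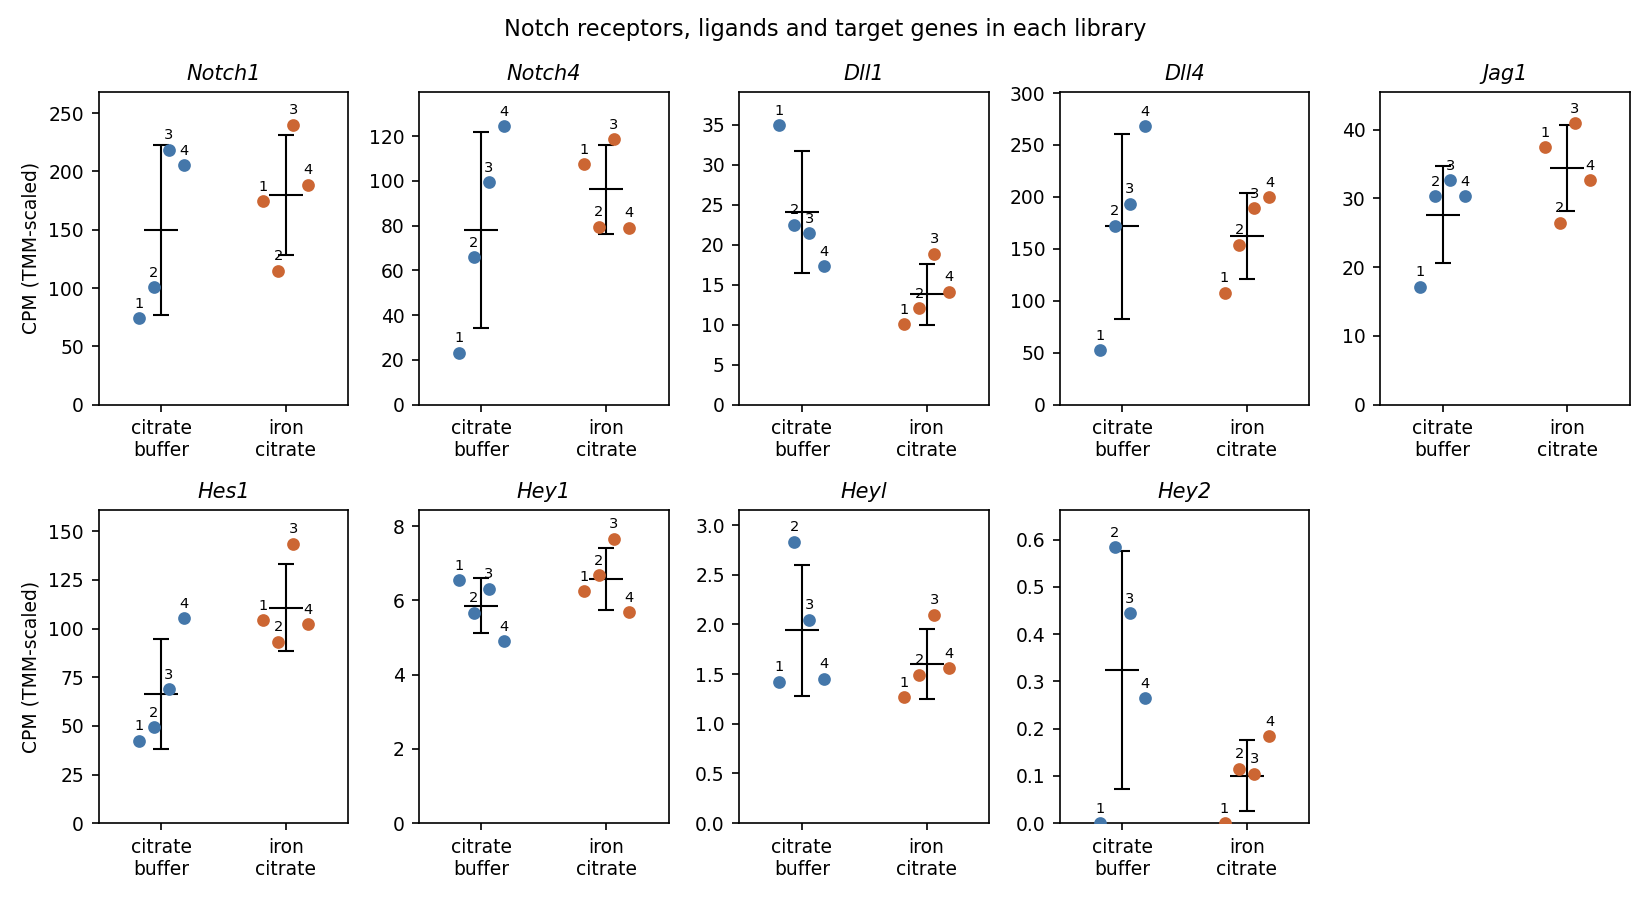
TMM-scaled CPM of the 9 counted members in each library (points, numbered by replicate), with the mean and SD of 4 libraries per group in black. Citrate buffer replicate 1 is the lowest library for Notch1, Notch4, Dll4, Jag1 and Hes1 and the highest for Dll1, and the groups overlap in all 9 panels.

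The receptor *Notch1*, which is made in most endothelia and acts in sinusoidal differentiation, stood at 74.0, 101, 218 and 205 CPM in citrate buffer replicates 1 to 4. After iron citrate its values were 175, 115, 239.9 and 189 CPM in replicates 1 to 4. Citrate buffer replicates 1 and 2 were low and the iron citrate libraries lay within or just above the range of the buffer group. The means were 149.6 ± 72.9 and 179 ± 51.5 CPM (SD, n = 4 each), and the fitted log2 difference of 0.26 (SE 0.35) was not called (edgeR adjusted p = 0.706). Without citrate buffer replicate 1 the change was 0.039 (SE 0.27), and without replicates 1 and 2 it was -0.24 (SE 0.22).

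*Notch4*, the receptor largely restricted to endothelium, showed 23.3, 66.0, 99.4 and 124 CPM after buffer. The iron citrate libraries had 107, 79.5, 119 and 79.1 CPM. Citrate buffer replicate 1 was the lowest of the 8 by a wide margin, at 0.241 of the mean of the other buffer libraries, and citrate buffer replicate 4 was the highest. The fitted log2 difference was 0.30 (SE 0.41, edgeR adjusted p = 0.71), -0.0027 (SE 0.20) without citrate buffer replicate 1, and -0.22 (SE 0.17) without replicates 1 and 2.

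Among the ligands, *Dll4*, the Delta-like ligand of arterial and tip endothelium, was at 52.7, 172, 193 and 268 CPM after buffer and 108, 154, 189 and 199.8 CPM after iron. The buffer group spanned the whole range of the iron group. The difference was -0.076 on the log2 scale (SE 0.40, edgeR adjusted p = 0.934). With citrate buffer replicate 1 left out, where the level was 0.25 of the mean of the other buffer libraries, it was -0.38 (SE 0.20, edgeR adjusted p = 0.438). With citrate buffer replicates 1 and 2 left out it was -0.50 (SE 0.22, edgeR adjusted p = 0.359), and over all 18 alternatives the adjusted p was 0.359 to 0.982. In RefSeq the long non-coding gene *Gm14207* overlaps the start of *Dll4*, and its own target drew 0 to 3 counts per library.

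Markers of arterial and other continuous endothelium, where *Dll4* is known to be strong, were summed per library. The sum was 1324 CPM in citrate buffer replicate 1 and 2944 to 3822 CPM in the other buffer libraries. After iron it was 3079 to 3947 CPM. *Ltbp4* alone was at 364 CPM in citrate buffer replicate 1 and 1600 to 2094 CPM in the other buffer libraries. Not every marker was low in citrate buffer replicate 1. *Fbln2* was at 50.5 CPM there, against 19.7 to 29.8 CPM in the other buffer libraries, and *Rspo3* at 41.3 CPM, against 25.3 to 27.2 CPM. *Ltbp4* and *Plvap* led, and none of 16 tested was called. At an unadjusted edgeR p under 0.05, 3 had higher and 0 lower values after iron, where 6.57% and 8% of all tested targets did. The list median was 0.44 on the log2 scale, with 11 values above 0 and 5 below. The largest change of the list was that of *Vwf*, the von Willebrand factor of larger vessels. *Vwf* was at 4.75, 17.7, 21.1 and 30.3 CPM after buffer and 75.9, 40.7, 143 and 40.8 CPM after iron. Its groups did not overlap, and it was not called (log2 difference 2.03, SE 0.55, edgeR adjusted p = 0.239). *Efnb2* is in this marker list and also among the other Notch target genes below, as are other genes of the list. The marker sum therefore includes *Efnb2* itself. The part of these cells in the values of *Dll4*, *Hey2* and *Efnb2* was not tested.

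*Dll1*, a Delta-like ligand best known from somites, lymphoid niches and arteries, had 34.9, 22.5, 21.4 and 17.3 CPM in the buffer libraries. Iron citrate libraries held 10.1, 12.1, 18.9 and 14.1 CPM. All 4 iron values lay under the 3 highest buffer values, and citrate buffer replicate 4 lay below iron citrate replicate 3. The means were 24.1 ± 7.59 and 13.8 ± 3.79 CPM (SD, n = 4 each). On the log2 scale the difference was -0.80 (SE 0.27), with an unadjusted edgeR p of 0.0148 that adjusted to 0.333. Citrate buffer replicate 1, the highest, was also the library with the most counts on families not expected in liver. Without it the log2 fold change was -0.57 (SE 0.21, edgeR adjusted p = 0.248), and the direction was the same in all 18 alternatives, of which none called it (adjusted p = 0.0889 to 0.525).

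*Jag1*, the Jagged ligand that competes with Delta-like ligands in sprouting vessels and that portal mesenchyme and cholangiocytes also make, gave 17.2, 30.4, 32.6 and 30.3 CPM after buffer. After iron it gave 37.5, 26.5, 40.9 and 32.7 CPM. Apart from citrate buffer replicate 1 the buffer libraries were within a narrow range, and the iron libraries fell on both sides of it. The fitted log2 difference was 0.32 (SE 0.22, edgeR adjusted p = 0.442), and 0.14 (SE 0.16) without citrate buffer replicate 1. Markers of cholangiocytes summed to between 64.5 and 131 CPM after buffer and between 103 and 134 CPM after iron over 10 genes, of which none of 7 tested was called. Of these, *Spp1* and *Cldn7* led, and *Cftr*, a defining marker, was at 0 in 5 of the 8 libraries.

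Target genes report whether the receptor's intracellular part reaches the nucleus, although several also answer to other signals. *Hes1*, a repressor that Notch induces in most cell types, was at 42.3, 49.3, 68.8 and 105 CPM after buffer. In the iron citrate libraries it was at 104, 93.2, 144 and 102 CPM. The iron libraries lay above 3 of the buffer libraries, and citrate buffer replicate 4 lay among them. Its mean was 66.4 ± 28.2 CPM after buffer and 111 ± 22.3 CPM after iron (SD, n = 4 each). That log2 difference of 0.74 (SE 0.27) had an unadjusted edgeR p of 0.0225 that adjusted to 0.333, so *Hes1* was not called.

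The size of the *Hes1* difference depended on which buffer libraries were used. It was 0.58 (SE 0.21) without citrate buffer replicate 1, 0.35 (SE 0.19) without citrate buffer replicates 1 and 2, and 1.05 (SE 0.22) without citrate buffer replicate 4. The edgeR adjusted p-values of these fits were 0.24, 0.47 and 0.106. It stayed positive in all 18 alternatives, with adjusted p-values of 0.106 to 0.595.

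The HEY repressors, which act in arterial and venous specification, were read at low counts. *Hey1* had 37 to 73 counts per library and values of 6.55, 5.67, 6.32 and 4.90 CPM after buffer and 6.25, 6.67, 7.66 and 5.69 CPM after iron. It varied less between libraries than the receptors did, and it was not low in citrate buffer replicate 1. The fitted log2 difference was 0.16 (SE 0.28, edgeR adjusted p = 0.778). *Heyl*, the family member of pericytes and smooth muscle, had 11 to 34 counts per library, with 1.42, 2.83, 2.05 and 1.46 CPM after buffer and 1.27, 1.495, 2.10 and 1.56 CPM after iron (log2 difference -0.28, SE 0.36, edgeR adjusted p = 0.686). The groups overlapped, and the difference was smaller than its SE. Markers of stellate cells, pericytes and smooth muscle summed to between 338 and 770 CPM after buffer and 527 and 781 CPM after iron, led by *Dcn* and *Rgs5*, with none of 12 tested called.

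*Hey2*, the member most tied to arteries, drew 0, 7, 5 and 2 counts in citrate buffer replicates 1 to 4 and 0, 1, 1 and 2 counts in iron citrate replicates 1 to 4. A count of 0 allows up to 0.285 CPM in citrate buffer replicate 1 and up to 0.293 CPM in iron citrate replicate 1, for counting error only. It was not tested.

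**Figure D2:**
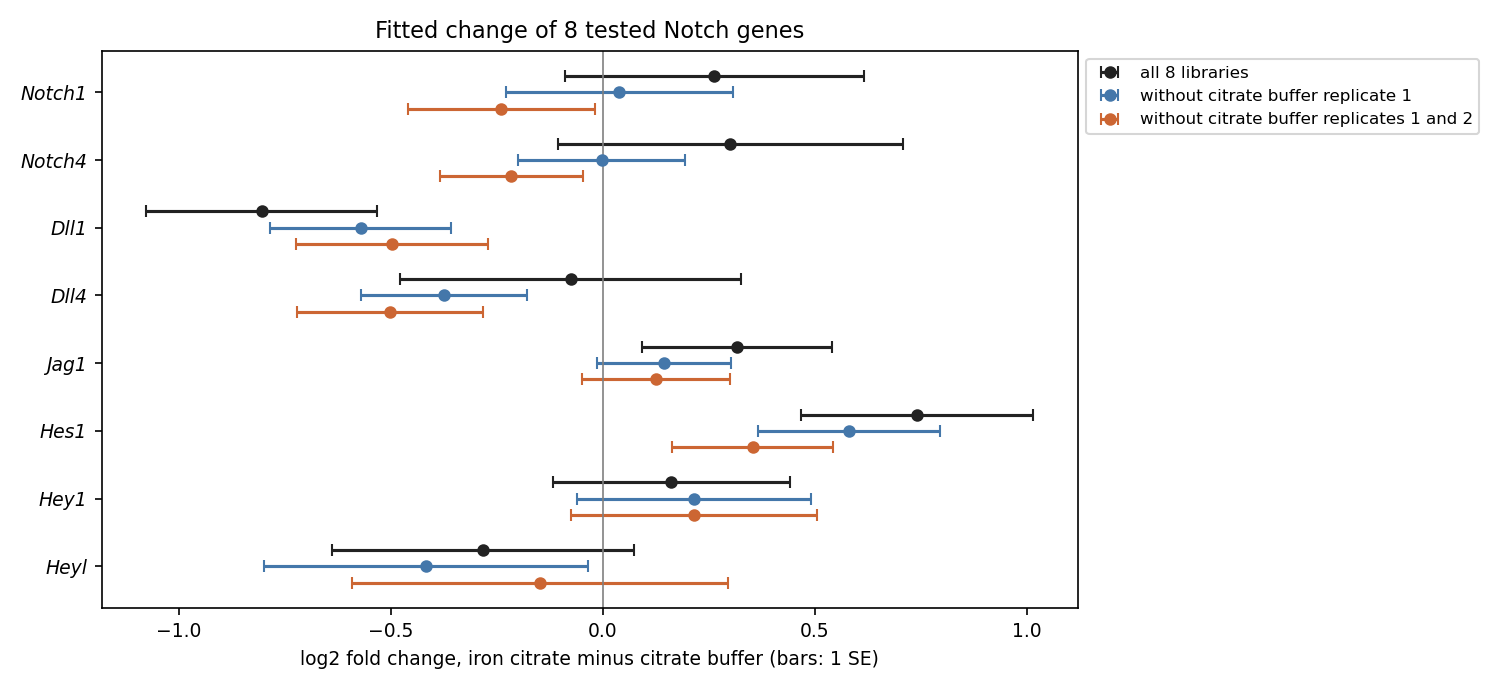
Log2 fold change of the 8 tested members, iron citrate minus citrate buffer, from edgeR with all 8 libraries (black), without citrate buffer replicate 1 (blue) and without citrate buffer replicates 1 and 2 (orange). Bars are 1 SE. Dll1 lies below 0 and Hes1 above 0 in all 3 fits, while Notch1 and Notch4 move from above 0 to below 0.

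Several members were low or high in the library that stood apart. In citrate buffer replicate 1, *Notch1* was at 0.423, *Jag1* at 0.553 and *Hes1* at 0.569 of the mean of the other 3 buffer libraries, and the summed sinusoidal markers were at 0.567 and the summed markers of arterial and other continuous endothelium at 0.388. *Dll1* was at 1.71 of that mean and *Hey1* at 1.16. Not every marker in the sum of arterial and other continuous endothelium was low in citrate buffer replicate 1, as given above. The pathway genes *Egfl7* and *Efnb2* were at 0.234 and 0.328, while *Notch3*, *Dll3* and *Jag2* were at 2.79, 3.31 and 4.32. The part of this library in the members' values was not tested beyond the fits without it.

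**Figure D3:**
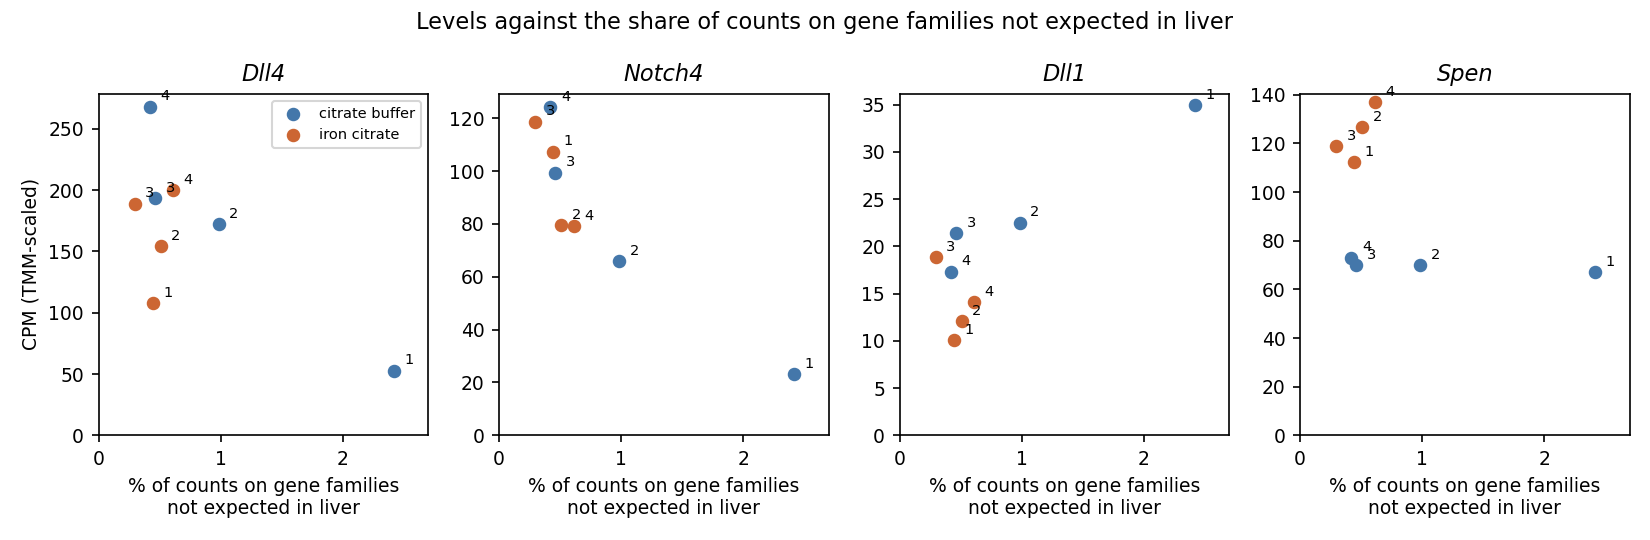
CPM of Dll4, Notch4, Dll1 and Spen in each library against the percent of its counts on gene families that liver is not expected to express, with citrate buffer in blue, iron citrate in orange and replicates numbered. Citrate buffer replicate 1, at 2.42%, has the lowest Dll4 and Notch4 and the highest Dll1, whereas Spen separates the groups.

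By the Pearson correlation of log2 CPM over the 8 libraries, among 6766 targets with a mean of at least 20 CPM, the targets most like *Notch1* included *Hnrnpl* (r = 0.989) and *Pip4k2b* (0.983). For *Dll4* they were *Sdc3* (0.975), *Sptssa* (0.974) and *Rhog* (0.972), and for *Hes1* *Plaur* (0.982), *Baz1b* (0.978) and *Diablo* (0.976). Without citrate buffer replicate 1 these values were 0.903 to 0.984 over 7 libraries. They are the highest of many, were picked for their height and share the libraries and their scaling, so they describe these libraries only.

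The rest of the pathway was read from lists of 78 genes, of which 73 had a matched target and 66 were tested. *Spen* was the only one called, where 0.555% of all tested targets were called. It encodes a large RNA-binding corepressor that joins RBPJ when no Notch intracellular part is there and recruits histone deacetylases. *Spen* stood at 67.0, 70.0, 69.8 and 73.1 CPM in citrate buffer replicates 1 to 4 and at 112, 127, 119 and 137 CPM in iron citrate replicates 1 to 4. All iron citrate values lay above all buffer values, and citrate buffer replicate 1 did not stand apart here. It rose 1.77-fold, from 70.0 ± 2.47 to 124 ± 10.6 CPM (SD, n = 4 each), which is 0.82 on the log2 scale (SE 0.11, edgeR adjusted p = 0.00894).

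The *Spen* change kept its size when citrate buffer replicate 1 was left out (log2 fold change 0.80, SE 0.12, edgeR adjusted p = 0.00149) and when citrate buffer replicates 1 and 2 were (0.79, SE 0.14, edgeR adjusted p = 0.00263). The call was lost by a small margin without citrate buffer replicate 2 (edgeR adjusted p = 0.0547), without citrate buffer replicate 3 (0.0524) and without iron citrate replicate 2 (0.0532), at log2 fold changes of 0.81 to 0.82, and with the replicate number as a block (0.0674). Over all 18 alternatives the log2 fold change was 0.71 to 0.87 and the adjusted p 2.12e-11 to 0.0674.

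**Figure D4:**
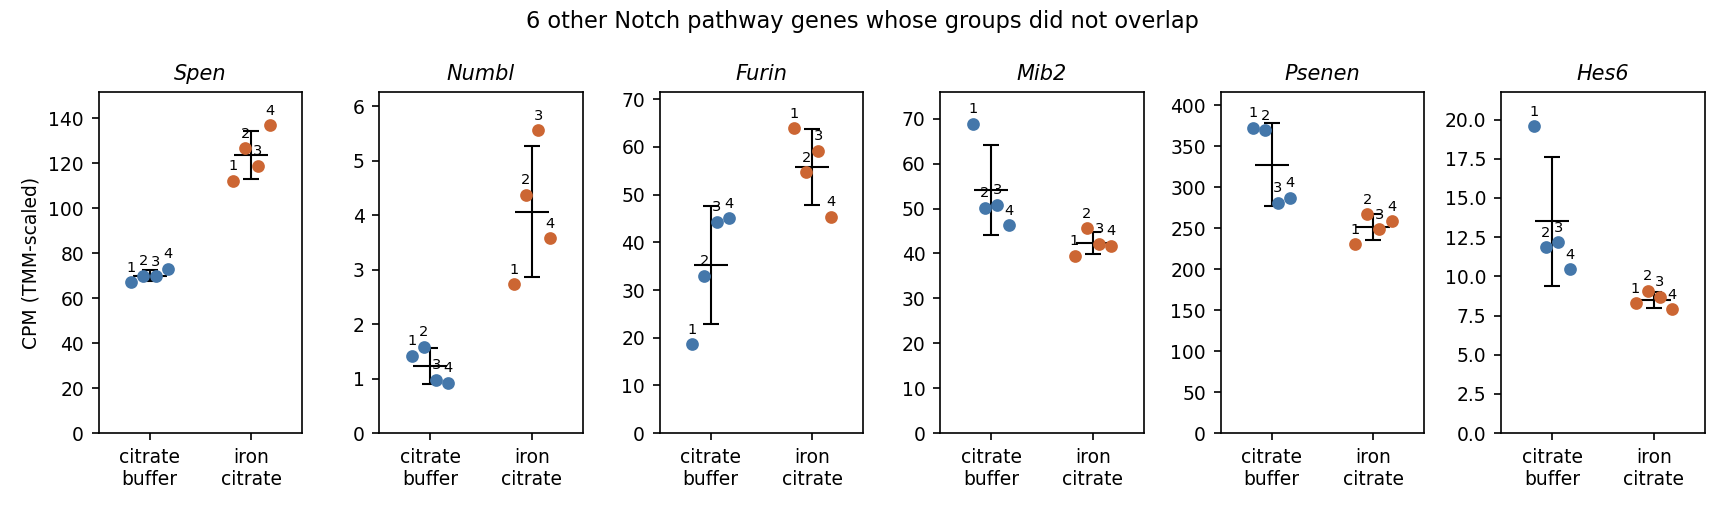
TMM-scaled CPM of Spen, Numbl, Furin, Mib2, Psenen and Hes6 in each library (points, numbered by replicate), with the mean and SD of 4 libraries per group in black. In each panel the 4 iron citrate libraries lie to 1 side of the 4 buffer libraries, and only Spen passed the adjusted test.

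Other cofactors at RBPJ gave less. Of 22 tested coactivators and corepressors 1 rose, none fell and 21 were not called, where 0.555% of all tested targets were called. Their median log2 fold change was 0.13. *Ncor1*, the one with the most counts and a corepressor of many factors, was at 265 ± 73.5 and 267 ± 35.1 CPM (SD, n = 4 each), a difference of 0.0099 on the log2 scale (SE 0.20) whose sign changed with the scaling. *Bend5*, at 8 to 43 counts per library, had iron values of 4.20, 2.19, 3.04 and 3.03 CPM against 0.76, 1.75, 1.96 and 1.85 CPM after buffer. Those groups did not overlap, but the gene was not called (log2 fold change 0.98, SE 0.39, edgeR adjusted p = 0.333). With citrate buffer replicates 1 and 2 left out it was 0.71.

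None of 20 tested genes that modify or take up ligands and receptors was called, and their median was 0.25. *Numbl*, an adaptor related to the Notch antagonist NUMB, was the nearest to the threshold. Its values were 1.42, 1.58, 0.98 and 0.93 CPM after buffer and 2.73, 4.37, 5.56 and 3.58 CPM after iron. All iron values lay above all buffer values, on 7 to 53 counts per library. The log2 difference of 1.70 (SE 0.36) missed the threshold (edgeR adjusted p = 0.115). *Numbl* was called higher with DESeq2 (adjusted p = 0.00319), with limma-voom (0.0329), without citrate buffer replicate 1 (1.77, edgeR adjusted p = 0.0348), without citrate buffer replicates 1 and 2 (2.07, 0.0168) and with the share of counts on genes not expected in liver as a covariate (1.76, 0.0236). Over its 17 alternatives the adjusted p was 0.00319 to 0.347.

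*Mib2*, a ubiquitin ligase that drives ligand uptake, averaged 42.3 ± 2.48 CPM after iron against 54.1 ± 10.1 CPM after buffer (SD, n = 4 each), and its groups did not overlap (log2 fold change -0.36, SE 0.15, edgeR adjusted p = 0.333). Without citrate buffer replicate 1 that value was -0.22 and without replicates 1 and 2 it was -0.20. *Lfng*, the glycosyltransferase that tunes Notch towards Delta-like ligands and whose promoter is printed above, had the most counts of this list. Its level was 323 ± 48.5 CPM after buffer and 297 ± 26.6 CPM after iron (SD, n = 4 each), and the log2 difference was -0.12 (SE 0.15), or -0.23 (SE 0.12) without citrate buffer replicate 1.

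Among 9 tested genes of receptor proteolysis none was called, with a median of 0.15. *Furin*, the convertase that cuts Notch on its way to the surface, was at 18.6, 33.0, 44.3 and 45.0 CPM after buffer and 63.9, 54.8, 59.2 and 45.3 CPM after iron. The lowest iron library lay just above the highest buffer library (log2 difference 0.66, SE 0.26, edgeR adjusted p = 0.333). It was 0.45 without citrate buffer replicate 1 and 0.32 without replicates 1 and 2. *Psenen*, a subunit of the gamma-secretase that frees the intracellular part, was lower in each iron library, at 251 ± 15.8 against 327 ± 50.3 CPM (SD, n = 4 each), and was not called (log2 difference -0.38, SE 0.14, edgeR adjusted p = 0.333). Leaving out citrate buffer replicates 1 and 2 gave -0.18. The subunit *Ncstn* stood at 312 ± 57.1 and 338 ± 15.9 CPM (SD, n = 4 each), 0.11 apart on the log2 scale.

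Of 5 other receptors and ligands tested none was called, with a median of -0.76. The 3 with values below 0, *Notch3*, *Dll3* and *Jag2*, were the 3 that were high in citrate buffer replicate 1. *Egfl7*, a secreted endothelial protein that can bind Notch, had 77.1, 249.6, 342 and 398 CPM after buffer and 334, 272, 451 and 363 CPM after iron (log2 difference 0.41, SE 0.40, edgeR adjusted p = 0.592). As with *Notch4* and *Dll4*, citrate buffer replicate 1 was its lowest library, and without it the difference was 0.10 (SE 0.18). None of 10 other tested target genes was called, with a median of 0.066. *Hes6*, a HES relative that opposes HES1, was lower in each iron library, at 8.50 ± 0.52 against 13.5 ± 4.10 CPM (SD, n = 4 each; log2 fold change -0.67, SE 0.27, edgeR adjusted p = 0.333). Without citrate buffer replicate 1 that was -0.44 and without replicates 1 and 2 -0.42. *Efnb2*, an arterial ephrin that Notch induces, was at 156 ± 68.8 and 178 ± 32.7 CPM (SD, n = 4 each; log2 fold change 0.19, SE 0.33), and its difference was -0.079 without citrate buffer replicate 1.

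Over all 66 genes, 11 had groups that did not overlap, 8 with iron above and 3 with iron below, where 8.67% of all tested targets did. Their median log2 fold change was 0.14, with 48 values above 0 and 18 below, beside the median of -0.0097 over all tested targets. That median was 0.052 without citrate buffer replicate 1, 0.00080 without citrate buffer replicates 1 and 2 and -0.021 with the covariate. At an unadjusted p under 0.05 there were 8 higher and 4 lower genes, where 6.57% and 8% of all tested targets were higher and lower.

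**Figure D5:**
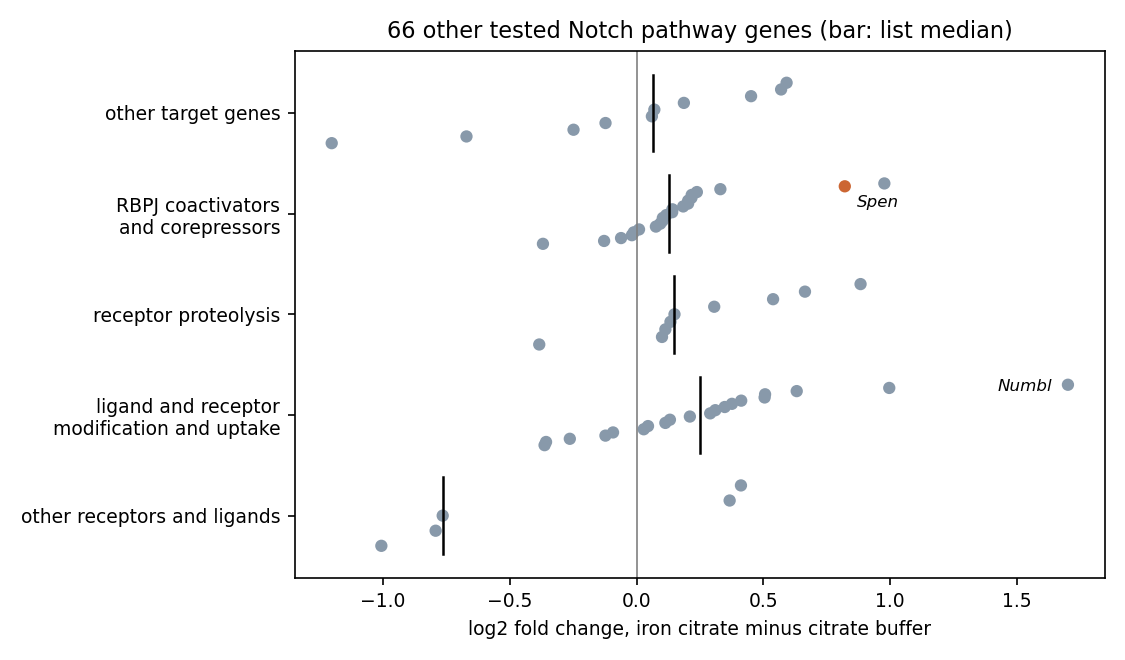
Log2 fold change, iron citrate minus citrate buffer, of 66 other tested Notch pathway genes by list (points), with the called gene Spen in orange and the list median as a black bar. Medians of 4 lists lie between 0.066 and 0.25, and that of other receptors and ligands at -0.76.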

How the data were processed

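RNA of sorted liver sinusoidal endothelium was read with the Ion AmpliSeq Transcriptome Mouse kit, per the labels' protocols. The authors deposited raw read counts per RefSeq target, 1 file per library, and the submitters' processing notes name HTSeq 0.6.0 and DESeq2 1.18.1. Which aligner and build were used is not given in the sources used here. Summary lines of HTSeq (2.15% to 4.60% of reads) were left out. RefSeq and GENCODE tables gave symbols for 22562 of 23930 accessions.

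Targets passing filterByExpr were fitted with edgeR 4.0.16 (R 4.3.3, TMM factors, robust quasi-likelihood F-test, group as the only term, Benjamini-Hochberg over all 14601), with SE from the F statistic. The alternatives were other scaling, DESeq2 1.42.0, limma-voom (limma 3.58.1), no filter, a mean CPM of at least 5, a replicate block, left-out libraries and the covariate. The covariate, and leaving out citrate buffer replicates 1 and 2 together, rest on library differences seen in these counts. In counts drawn by simulation (14478 genes), edgeR found 27 of 99 genes with a 2-fold and 71 of 96 with a 4-fold change. It wrongly called 8 of 14283 others. Whether these rates hold with a library that stands apart, as citrate buffer replicate 1 did, was not tested. The 28 pairs of libraries had a chi-square per degree of freedom of at least 8.75, so none was a duplicate within sampling noise.

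The members and lists were chosen with earlier results of these data known. The named genes are the members, any list gene called or with groups that did not overlap at an unadjusted p under 0.05, the most abundant gene of each list, the 2 most abundant markers of each cell type, and the 3 targets most correlated with the most abundant receptor, ligand and target gene, of which 1 is not reported here. *Notch3*, *Dll3*, *Jag2*, *Cftr*, *Vwf*, *Fbln2*, *Rspo3*, *Mcam*, *Stab2* and *Gm14207* were added after their values were seen. Amplicon reads carry no molecular identifiers, so limits from a count of 0 cover counting error only.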

Additional observations from a re-analysis of the deposited data

Results flagged for a closer look

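*Jag1* in citrate buffer replicate 1, at 17.2 CPM, lay far below the other 3 buffer libraries, which were between 30.3 and 32.6 CPM. Its gap to the nearest of them was 0.849 of the group's range, above Dixon's critical value for 4 samples. It was the only one of 42 sets of 4 libraries, over 21 named genes, to pass that limit, which chance passes in about 1 of 20.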

How the results depend on the processing

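None of the members was called in any of 18 alternatives. Of the 143 member values refitted, 134 kept their direction. The other 9 were of *Notch1*, *Notch4* and *Dll4*, 3 each. *Notch1* turned to -0.086 with limma-voom, -0.24 without citrate buffer replicates 1 and 2 and -0.16 with the covariate, *Notch4* to -0.22 and -0.23 in the latter 2 fits, and *Dll4* to 0.093 with the replicate block. With each library left out in turn, *Notch4* ranged from -0.0027 to 0.61 and *Dll4* from -0.38 to 0.22.

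Of the other named genes, *Efnb2* turned to -0.071 with limma-voom, -0.16 without citrate buffer replicates 1 and 2 and -0.25 with the covariate, *Egfl7* to -0.061 and -0.084, and *Ncstn* to -0.047 and -0.055 in the latter 2 fits. *Ncor1* turned to -0.016 with relative log expression factors and with DESeq2, -0.12 with upper-quartile factors and with library totals, and -0.025 at a mean CPM of at least 5. With single libraries left out *Efnb2* ranged from -0.079 to 0.42, *Ncor1* from -0.11 to 0.21 and *Ncstn* from -0.0066 to 0.196. The cause was not tested.

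The number of other pathway genes called was 1, 2 with DESeq2, limma-voom, the covariate or citrate buffer replicates 1 and 2 left out, 0 with the replicate block, and 0 to 2 with single libraries left out. Over all targets 81 were called, 365 with DESeq2, 290 with limma-voom, 327 with the covariate, 281 without citrate buffer replicates 1 and 2, 43 with the replicate block and 46 to 259 with single libraries left out, the highest without citrate buffer replicate 1. Of the calls, 77 were higher and 4 lower, and 295 and 70 with DESeq2. Upper-quartile factors moved the median of all targets to -0.12 and library totals to -0.11.

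The replicate numbers of the sample titles did not pair the libraries throughout. Deviations of same-numbered libraries from their group means correlated at -0.000298, 0.176, 0.609 and -0.315, and only number 3 correlated best with its own. The replicate block rests on the title numbers, and a pairing under other numbers was not tested. Counts per library were 0 to 7 for *Hey2*, 11 to 34 for *Heyl* and 7 to 53 for *Numbl*.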
